A study of Mus musculus with 8 samples.

Results

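The 9 genes described here encode the transcription factors that set and keep hepatocyte identity: the forkhead factors Foxa1, Foxa2 and Foxa3, the C/EBP factors Cebpa and Cebpb, the Onecut factors Onecut1 (HNF6) and Onecut2, the homeobox factor Prox1 and the zinc finger factor Gata4. They were picked by symbol from a table of 24451 genes, and all 9 were found, each in 1 row. The livers came from 4 Brap LKO mice, which carry Brap alleles with loxP sites around exons 2 and 3 together with an Albumin-Cre transgene, and from 4 Brap F/F control mice with the same floxed alleles and no Cre, which the deposited labels call wild type. All were male C57BL/6 mice, 18 wk old and fasted for 6 h before the left lobe was taken. Albumin-Cre acts in cells that have made albumin, chiefly hepatocytes, so liver cells that never made albumin keep Brap, and bulk RNA holds both.

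In the developing liver, FOXA and GATA4 proteins open closed chromatin at liver genes before those genes are read, which is why they are called pioneer factors. C/EBP, Onecut and HNF4A proteins then bind with them at the enhancers of genes for plasma proteins, gluconeogenesis and bile acid synthesis, and the factors bind at each other's genes, so that the adult hepatocyte is held in place by a network. Several of these genes are also read in other liver cells: Foxa1, Foxa2 and the Onecut genes in bile duct cells, Gata4 in sinusoidal endothelial and stellate cells, Cebpb in macrophages and Prox1 in lymphatic endothelium.

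The 250 bases before the transcription start were read for the members that RefSeq places on GRCm38.p6, the assembly that is also called mm10. Windows were found for 7 of the 9 genes, and Gata4 and Onecut2 were not matched. The starts are those of RefSeq, whereas the gene positions given below are from GENCODE, and they can differ. By GENCODE the Foxa1 window lies within the gene, which runs from 57540628 to 57546916. Prox1 and Foxa2 have more than 1 annotated start, and 1 window of each is shown. Shown are the windows of the 2 members in which a site for another class of these factors or for their own class was found, with that site in capitals, and those of Prox1, whose groups of livers did not overlap, and Onecut1, which varied most between livers. Each is written 5′ to 3′ on the strand of the gene.

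Foxa1, minus strand, chr12:57546112-57546361: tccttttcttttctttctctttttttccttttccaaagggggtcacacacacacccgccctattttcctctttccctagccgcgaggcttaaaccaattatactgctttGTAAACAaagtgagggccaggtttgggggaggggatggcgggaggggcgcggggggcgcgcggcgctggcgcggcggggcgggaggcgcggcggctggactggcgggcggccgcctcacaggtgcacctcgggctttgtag

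Foxa2, minus strand, chr2:148046970-148047219: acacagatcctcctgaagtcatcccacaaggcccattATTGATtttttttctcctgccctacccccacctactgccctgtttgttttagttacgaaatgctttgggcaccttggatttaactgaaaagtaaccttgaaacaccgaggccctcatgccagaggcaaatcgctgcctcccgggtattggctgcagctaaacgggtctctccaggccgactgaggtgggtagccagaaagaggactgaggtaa

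Prox1, minus strand, chr1:190170828-190171077: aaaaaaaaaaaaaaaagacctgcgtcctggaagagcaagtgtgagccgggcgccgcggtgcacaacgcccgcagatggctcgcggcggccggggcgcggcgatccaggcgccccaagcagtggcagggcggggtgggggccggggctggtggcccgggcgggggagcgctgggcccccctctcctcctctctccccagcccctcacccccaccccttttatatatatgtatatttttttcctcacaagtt

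Onecut1, plus strand, chr9:74861671-74861920: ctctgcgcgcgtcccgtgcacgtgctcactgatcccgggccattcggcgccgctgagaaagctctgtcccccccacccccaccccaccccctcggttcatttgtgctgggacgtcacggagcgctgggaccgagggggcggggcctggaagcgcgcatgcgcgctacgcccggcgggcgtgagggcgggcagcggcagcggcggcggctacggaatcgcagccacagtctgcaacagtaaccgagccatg

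The search covered both strands of each window and the 50 bases after the start. FOXA proteins were given the letters TGTTTAC as their site in this search. For C/EBP proteins it used TTGCNNAA, where N is any base. Onecut proteins were searched for by the letters ATTGAT in the same windows. GATA factors were represented by the letters AGATAA, a common core of their sites. The letters GGAATG were included for the TEAD factors of the Hippo pathway. No match overlapped another. The Foxa1 window holds the FOXA letters on the opposite strand, beginning 141 bases before the start, and the Foxa2 window holds the Onecut letters 213 bases before it. Another match, to the GATA letters, lies 183 bases before another annotated start of Foxa2. Of 32817 mouse promoter windows of the same length, 3.65% hold the FOXA letters, 10.8% the C/EBP letters, 7.54% the Onecut letters, 11.2% the GATA letters and 14.7% the TEAD letters, so single matches are common. The windows of the 7 genes held from 51.7% G and C in one start of Foxa2 to 80.7% in Cebpb, beside a median of 52.7% over all windows.

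Counts behind the comparison were deep. Between 26280884 and 33313914 reads were counted on genes in each liver, and every value of the table was a whole number of reads divided by the size factor of its liver, which the text calls a normalized count. None of the 9 genes was near the floor, since the lowest value was 352 normalized counts, where 3 reads come to at most 3.42. The targeted gene does not check the labels: Brap stood at 3641 to 4203 normalized counts with Cre and at 3994 to 4410.2 without (log2 fold change -0.07, 95% interval -0.22 to 0.08), and reads on the deleted exons were not analysed apart from the rest. The labels name the mice as separate animals.

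The test was limma, which fits a linear model to each gene and pools information on the spread over all of them, applied to log2(normalized count + 1). Adjustment of the p-values followed Benjamini and Hochberg and covered the 15352 genes with a mean of at least 5. A gene passed at an adjusted p under 0.05. All 9 members were tested, and 0 of them passed, where 0.769% of all tested genes did, 0.664% with the higher and 0.104% with the lower level in the Brap LKO livers. At an unadjusted p under 0.05 there were 4, Foxa3, Prox1, Onecut2 and Gata4, all with the higher mean in the Brap LKO livers. Of all tested genes, 15.8% had such a p, 9.23% with the higher mean in the Brap LKO livers. The edgeR quasi-likelihood test on the recovered reads also called 0 members (0.795% of all genes), whereas DESeq2 on the same reads called 2, Prox1 and Onecut2, both higher in the Brap LKO livers (3.70% of all genes, 2.73% in that direction). Of the 9 fitted fold changes 6 were above 0 and 3 below, with a median of 0.19 on the log2 scale, beside -0.01 over all tested genes. The p-values rest on the spread between 4 livers per group.

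**Figure D1:**
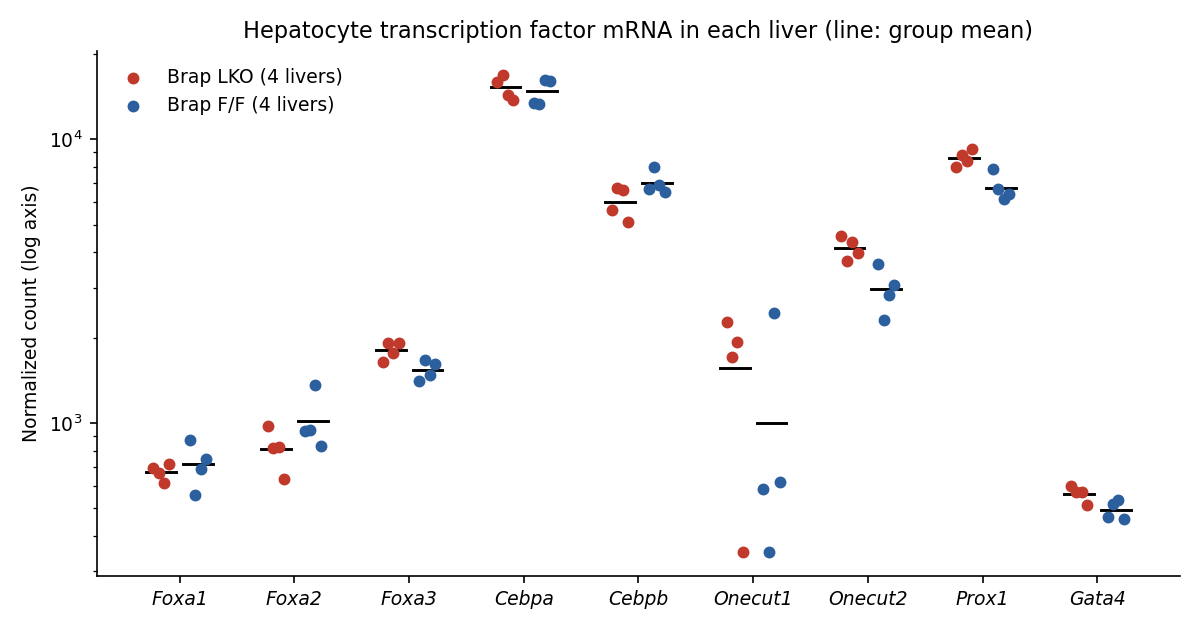
Normalized counts of the 9 factors on a log axis, 1 point per liver, with Brap LKO livers in red, Brap F/F livers in blue and the group means as black lines. For Prox1 and Onecut2 every red point lies above every blue point, and for Onecut1 the points of both groups run from 352 to 2448 normalized counts.

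Prox1 had the smallest p of the 9. It encodes a homeobox factor needed for hepatoblasts to leave the liver bud and, in the adult, a co-repressor that holds back Cyp7a1 and other metabolic genes. Its gene lies on chromosome 1 of mm10 from 190118035 to 190170714. The 4 Brap LKO livers held 7989, 8814, 8415 and 9263 normalized counts in replicates 1 to 4, and the 4 Brap F/F livers 7834, 6691, 6140.1 and 6398. The groups did not overlap, the nearest livers being Brap LKO replicate 1 and Brap F/F replicate 1. Group means were 8620.2 ± 545 (SD, n = 4) and 6766 ± 747 (SD, n = 4). On the log2 scale they were 0.35 apart (95% interval 0.15 to 0.56, or 1.11-fold to 1.47-fold). With an adjusted p of 0.111 from limma the change did not pass, while DESeq2 on the recovered reads gave an adjusted p of 0.0227. The two-sided exact permutation test over the 70 ways to divide 8 livers gave p = 0.0286, the smallest it can give. In 9.87% of all tested genes the groups did not overlap either, and in 5.48% all Brap LKO livers were the higher ones. Of the exon bases of Prox1, 1.59% are shared with the antisense gene Prox1os, which had a fold change of -0.05 on the log2 scale.

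Onecut2 was the other member whose groups did not overlap. Onecut2 protein binds the same kind of site as HNF6, and the pair act together in the choice between hepatocyte and bile duct fate. Its gene spans positions 64340020 to 64400987 of chromosome 18 and has 16234 exon bases, the most of the 9. Normalized counts were 4559.9, 3730.2, 4351 and 3965 in Brap LKO replicates 1 to 4 and 3633, 2306, 2832 and 3066 in Brap F/F replicates 1 to 4. As with Prox1, Brap F/F replicate 1 was the highest control and came closest to the Brap LKO livers. The means of 4151 ± 374 (SD, n = 4) and 2959 ± 550.3 (SD, n = 4) gave a log2 fold change of 0.50 (95% interval 0.21 to 0.80, or 1.16-fold to 1.74-fold). The adjusted p was 0.115 from limma and 0.0293 from DESeq2 on the recovered reads, and the exact permutation test gave p = 0.0286.

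The numbers in the labels of the mice fall into 2 series, a lower one in which 3 livers were Brap LKO and 1 was Brap F/F, and a higher one in which 1 was Brap LKO and 3 were Brap F/F. Within both series, the Brap LKO livers stood above the Brap F/F livers for Prox1, Onecut2 and Foxa3. For Prox1 and Onecut2 this already follows from groups that did not overlap over all livers. The share of all tested genes with such an order in both series was not counted. In the higher series the single Brap LKO liver had 9263 normalized counts of Prox1, beside 6140.1 to 6691 in the 3 controls, and 3965 of Onecut2, beside 2306 to 3066. With 1 liver on one side these values allow no test. With the series as a covariate in limma the log2 fold changes were 0.32 for Prox1 and 0.38 for Onecut2 (adjusted p = 0.281 and 0.300).

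Onecut1 varied from liver to liver far more than any other member. HNF6, its product, is the founding Onecut factor, known for switching on Foxa2 and Hnf4a in the fetal liver and for shaping the bile ducts. In the Brap LKO livers its normalized counts were 2269, 1713, 1924 and 352 in replicates 1 to 4. In the Brap F/F livers they were 584, 352, 2448 and 621. Thus 3 Brap LKO livers and Brap F/F replicate 3 held 1713 or more, the other 4 livers held 621 or fewer, and no liver lay between. The within-group SD was 1.22 on the log2 scale, higher than that of 99.1% of all tested genes, where the other 8 members had SDs from 0.10 to 0.28. The log2 fold change of 0.77 therefore has a 95% interval from -0.79 to 2.32, or 0.579-fold to 5.01-fold (adjusted p = 0.611 from limma, exact permutation test p = 0.486), which also holds the fold changes of Prox1 and Onecut2. Without Brap LKO replicate 4 the value was 1.39, without Brap F/F replicate 3 it was 1.34, and with the animal series as a covariate it was 0.27, none past the threshold. Of the Onecut1 exon bases (chromosome 9, 74861921 to 74891781), 52.8% lie within exons of Gm20649 on the same strand, a gene absent from the deposited values. Reads of Gm20649 may have been counted for Onecut1, or reads on the shared bases left out, which was not tested.

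The gene whose pattern over the 8 livers came closest to that of Onecut1 was Cish, which encodes a feedback inhibitor of STAT5 signaling. Its normalized counts were 744, 859.7, 898 and 125 in Brap LKO replicates 1 to 4 and 349, 389.5, 1507 and 283 in Brap F/F replicates 1 to 4. The same 4 livers were high for both genes, and Brap LKO replicate 4 had the lowest value of Cish and, together with Brap F/F replicate 2, the lowest of Onecut1. Cish was picked for its likeness over these same livers, so a link between the 2 genes was not tested. Likeness was measured as the root mean square difference of the deviations of 2 genes from their own means, on the log2 scale, among 10143 genes with a mean of at least 100 normalized counts. It was 0.51 for Cish and Onecut1, whose own deviations came to 1.07 and 1.13. The next closest gene, Smad9, differed by 0.69. Between the groups, Cish itself differed by 0.08 on the log2 scale (95% interval -1.50 to 1.66, adjusted p = 0.966 from limma).

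**Figure D2:**
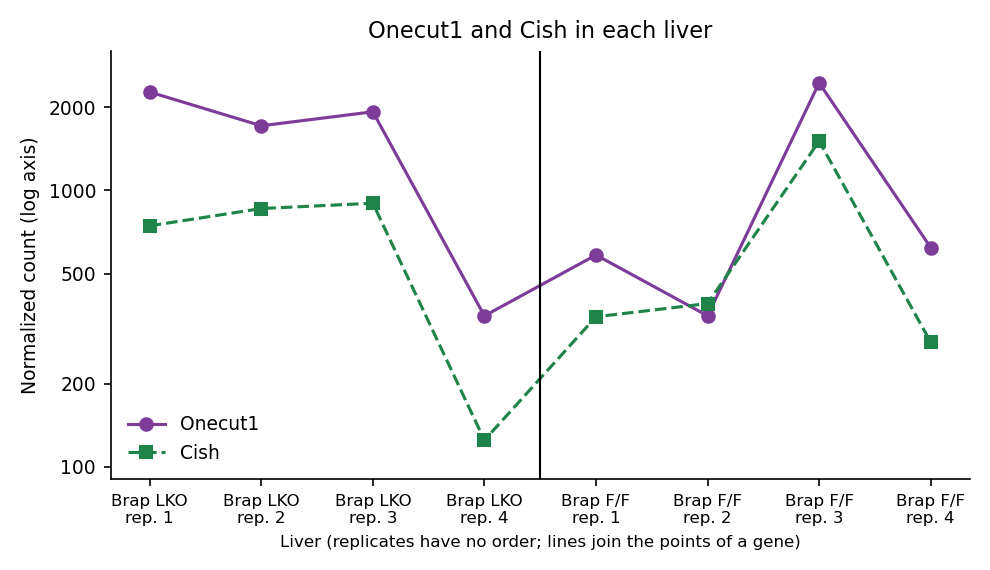
Normalized counts of Onecut1 (circles) and Cish (squares) on a log axis in each of the 8 livers, with lines that only join the points of a gene and a vertical line between Brap LKO and Brap F/F livers. Brap LKO replicates 1 to 3 and Brap F/F replicate 3 are high for both genes, and Brap LKO replicate 4 is low for both, with 352 and 125 normalized counts.

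The ratio of Onecut1 to Onecut2 followed Onecut1. It ran from 0.0889 to 0.498 in the Brap LKO livers and from 0.153 to 0.865 in the Brap F/F livers, and the mean log2 ratio differed by 0.26 (exact permutation test p = 0.743). In every liver, more reads fell on Onecut2 than on Onecut1, whose exons are shorter.

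The 3 FOXA genes had fold changes on both sides of 0, and 0 of them passed. Foxa1 and Foxa2 are the pair that the fetal liver cannot form without, and Foxa3 takes over as the most abundant of them after birth. Foxa3 (chromosome 7, 19013284 to 19023538) had 1641, 1913, 1760.4 and 1917 normalized counts in Brap LKO replicates 1 to 4 and 1412, 1665, 1477 and 1612 in Brap F/F replicates 1 to 4. Only Brap LKO replicate 1 and Brap F/F replicate 2 were out of order between the groups. Its log2 fold change was 0.23 (95% interval 0.05 to 0.41, adjusted p = 0.218 from limma, exact permutation test p = 0.0571). Foxa2 (chromosome 2, 148042877 to 148046969) had 976, 819, 820.5 and 634 in the Brap LKO livers and 941, 947, 1358 and 829 in the Brap F/F livers. Of the Brap LKO livers only replicate 1 lay within the control range and the other 3 lay below it (log2 fold change -0.32, 95% interval -0.70 to 0.06, adjusted p = 0.391). Leaving out Brap F/F replicate 3 gave -0.17, and leaving out Brap LKO replicate 4 gave -0.20. Foxa1 (chromosome 12, 57540628 to 57546916) had 691, 669, 616 and 719 in the Brap LKO livers and 872, 557, 691 and 747 in the Brap F/F livers. Both the highest and the lowest Foxa1 value came from control livers, and its log2 fold change was -0.07 (95% interval -0.36 to 0.21, adjusted p = 0.805).

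A ratio of 2 genes within a liver does not depend on how the livers are scaled. Foxa3 to Foxa2 was 1.68, 2.33, 2.14 and 3.02 in Brap LKO replicates 1 to 4 and 1.5001, 1.76, 1.09 and 1.94 in Brap F/F replicates 1 to 4, a comparison chosen after the values were seen. The mean log2 ratio was 1.17 ± 0.348 (SD, n = 4) and 0.62 ± 0.366 (SD, n = 4). The groups overlapped, by Brap LKO replicate 1, and the exact permutation test gave p = 0.0857 for the difference of 0.55.

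C/EBPα keeps hepatocytes out of the cell cycle and drives gluconeogenic and urea cycle genes, whereas C/EBPβ serves regeneration and the acute phase response. Cebpa (chromosome 7, 35119293 to 35121928) was the most abundant of the 9, at 15966, 16923, 14346 and 13818 normalized counts in Brap LKO replicates 1 to 4 and 13392, 13351, 16248 and 16093 in Brap F/F replicates 1 to 4. The 2 groups covered almost the same range. Its log2 fold change was 0.05, and the 95% interval from -0.19 to 0.29 allows at most a 1.22-fold higher or a 0.878-fold level in the Brap LKO livers (adjusted p = 0.845 from limma). Cebpb (chromosome 2, 167688915 to 167690418) had 5617, 6743, 6626 and 5109.7 in the Brap LKO livers and 6668, 7976, 6879 and 6525 in the Brap F/F livers. Brap LKO replicates 1 and 4 lay below all controls, and replicates 2 and 3 lay among them (log2 fold change -0.22, 95% interval -0.47 to 0.02, adjusted p = 0.352). Of its exon bases, 20.7% are shared with Tmem189 on the opposite strand, and how the authors used strand is not given in the sources used here. Tmem189 had 395 ± 50.4 and 606 ± 91.7 normalized counts (SD, n = 4 per group; log2 fold change -0.61, adjusted p = 0.0791 from limma), well below the level of Cebpb.

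The ratio of Cebpa to Cebpb was 2.84, 2.51, 2.17 and 2.70 in Brap LKO replicates 1 to 4 and 2.01, 1.67, 2.36 and 2.47 in Brap F/F replicates 1 to 4. Brap LKO replicate 3 lay inside the control range and the other 3 above it. The mean log2 ratio of 1.35 ± 0.171 (SD, n = 4) exceeded that of 1.07 ± 0.254 (SD, n = 4) by 0.27, which the exact permutation test did not separate from the spread between livers (p = 0.114).

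Gata4 (chromosome 14, 63198922 to 63271692) had 599, 569, 573 and 516 normalized counts in Brap LKO replicates 1 to 4 and 465, 518, 536 and 457 in Brap F/F replicates 1 to 4. Only Brap LKO replicate 4 fell within the control range. The means were 564 ± 34.97 (SD, n = 4) and 494 ± 38.8 (SD, n = 4). On the log2 scale they were 0.19 apart (95% interval 0.01 to 0.38, adjusted p = 0.305 from limma, exact permutation test p = 0.0857).

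**Figure D3:**
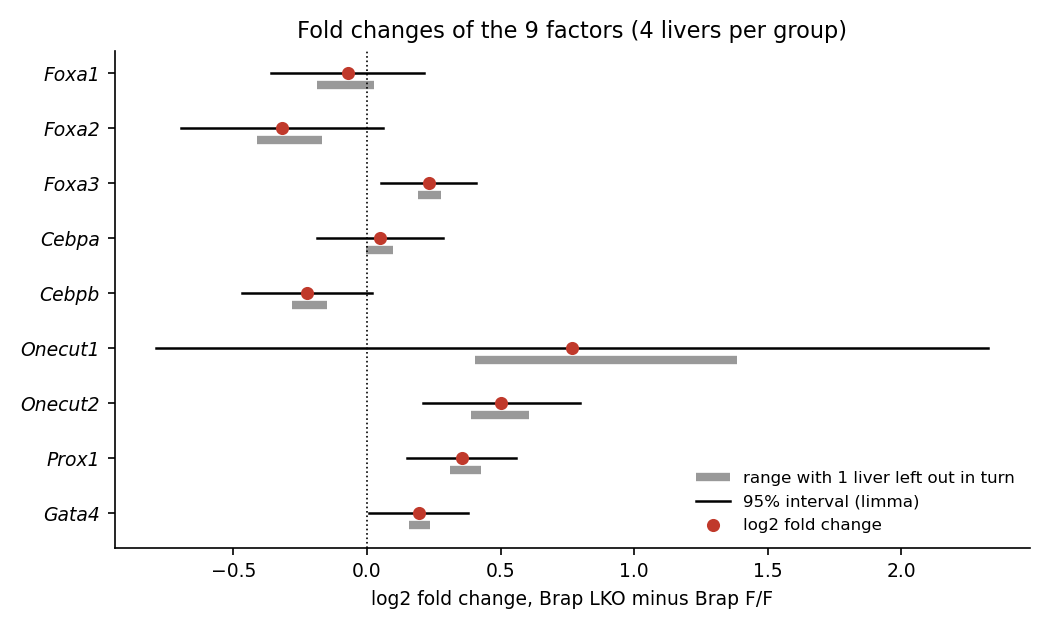
Log2 fold change of each factor, Brap LKO minus Brap F/F (red points), with the 95% interval from limma (black lines, 4 livers per group) and the range of values with 1 liver left out in turn (grey bars). The intervals of Foxa3, Onecut2, Prox1 and Gata4 lie above 0, and that of Onecut1 runs from -0.79 to 2.32.

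**Figure D4:**
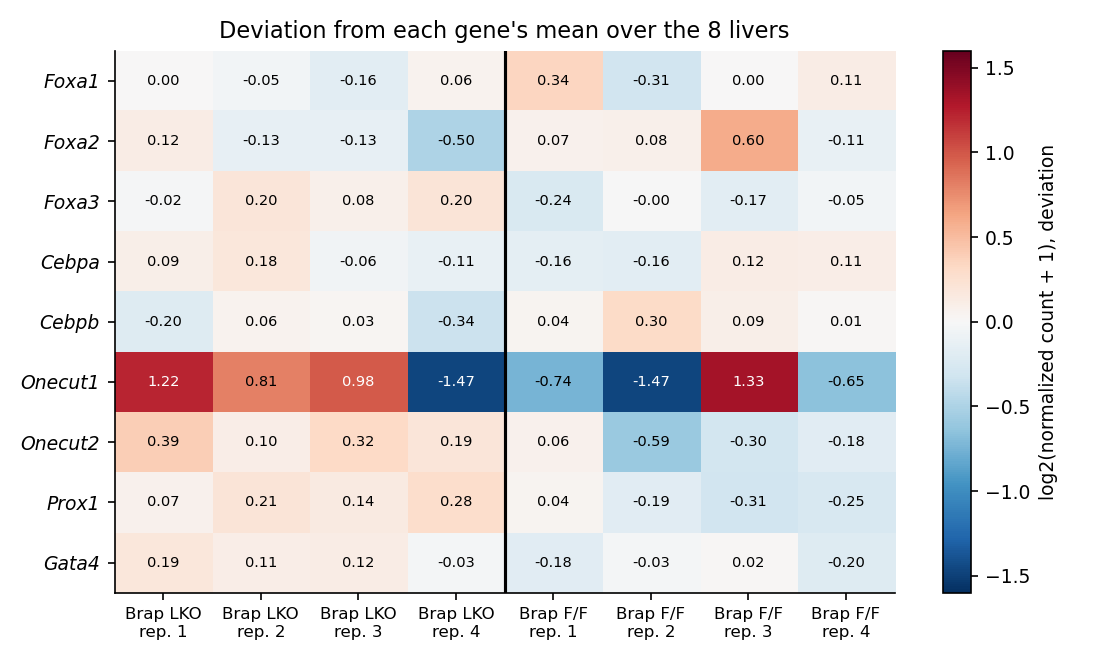
Deviation of log2(normalized count + 1) from the mean of each factor over the 8 livers, in log2 units, with Brap LKO livers left and Brap F/F livers right of the line. Onecut1 reaches from -1.47 to 1.33, whereas Prox1 and Onecut2 change sign only within the control livers, where replicate 1 is above 0 for both.

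Levels of different genes were set side by side per kilobase of annotated exon (normalized counts per kb, mean ± SD over the 8 livers). Cebpa stood highest at 5697 ± 546, followed by Cebpb at 4334 ± 569.5, and Cebpa was the higher of the pair in 7 of 8 livers. Prox1 at 917 ± 138 and Foxa3 at 822 ± 90.2 came next, with ranges that overlapped. Foxa2 at 386 ± 88.2, Onecut1 at 312 ± 217, Onecut2 at 219 ± 47.6 and Foxa1 at 209 ± 27.95 came next by their means, with ranges of neighbours that overlapped and each above the next in 4 of the 8 livers. Foxa2 was above Onecut2 and Foxa1 in all 8 livers, with ranges that did not overlap for Foxa1, whereas Onecut1 had no settled place among them. Gata4 had the lowest mean at 136 ± 13.004, below Foxa1 in all 8 livers. Cebpa lay above 98.6% of all tested genes by this measure and Gata4 above 64.0%. For Onecut1 and Cebpb the shared exon bases make these levels uncertain.

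For each member the gene of closest pattern was looked up in the same way as for Onecut1. They were 3830406C13Rik for Foxa1, Epm2a for Foxa2, Pwp2 for Foxa3, Trappc6a for Cebpa, Agt for Cebpb, Glul for Prox1, Vsir for Onecut2 and Thra for Gata4, with root mean square differences between 0.04 and 0.10 log2 units over 8 livers. For these 8 members the own deviations were small, from 0.13 to 0.31, so many genes lay nearly as close. Glul, the glutamine synthetase of hepatocytes around the central vein, had 30866, 32469.9, 36437 and 37585 normalized counts in Brap LKO replicates 1 to 4 and 32149, 28558, 24429 and 27267 in Brap F/F replicates 1 to 4. Unlike Prox1, its groups overlapped (log2 fold change 0.29, adjusted p = 0.273 from limma). Glul was picked for its likeness to Prox1 over these same livers, so a link between the 2 genes was not tested. Glb1l, the next closest gene, differed by 0.077, beside 0.075 for Glul.

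The levels of cell type markers are given beside these values. All 8 hepatocyte markers had lower means in the Brap LKO livers. Their median was -0.38 on the log2 scale, with 0 past the threshold, and their summed level was 2133014 to 3004234 normalized counts there and 2857650.4 to 4170877 in the Brap F/F livers. The sums overlapped and are mostly Alb, while the mean log2 deviation of the 8 markers weights them equally. This mean deviation was -0.40 to -0.03 in the Brap LKO livers and 0.03 to 0.37 in the controls, without overlap. For each of the 8 markers alone the groups overlapped. An unadjusted p under 0.05 in limma was found for 2 of them, both lower in the Brap LKO livers. The most abundant were Alb (log2 fold change -0.52), Cyp2e1 (-0.42) and Ahsg (-0.03). All 6 tested cholangiocyte markers had higher means, with a median of 0.95, and the summed level was 1349 to 3015 against 718 to 1485. Spp1, Sox9 and Epcam were the most abundant, at log2 fold changes of 0.95, 0.72 and 0.96, and did not pass in limma. At an unadjusted p under 0.05 were 5 of the 6, and in 3 the groups did not overlap. DESeq2 on recovered reads called Epcam (adjusted p = 0.0240). The mean log2 deviation of the 6 was 0.18 to 1.25 in the Brap LKO livers and -0.87 to -0.22 in the controls. Cftr, a chloride channel of bile duct cells, passed the threshold (adjusted p = 0.0331 from limma), with 18, 19, 6 and 17 reads in the Brap LKO livers and 0, 1, 2 and 1 in the Brap F/F livers. With 1 liver left out in turn it passed in 3 of 8 fits (adjusted p = 0.0416 to 0.133). Summed levels of the sinusoidal endothelial markers (8267 to 11399.6 against 7005 to 10759) overlapped, with log2 fold changes of 0.02 for Stab1, 0.12 for Stab2 and 0.32 for Kdr. So did those of the macrophage markers (6017 to 10872 against 6452 to 8887), the stellate cell and fibroblast markers (9483 to 13937 against 6969 to 13519) and the 3 tested lymphatic markers (1013 to 1372 against 784 to 1294). The most abundant of these were Clec4f (0.02), Cd5l (0.13) and Csf1r (0.34) for macrophages, Dcn (0.37), Ecm1 (-0.56) and Reln (0.37) for stellate cells and fibroblasts and Flt4 (0.20), Mmrn1 (0.39) and Pdpn (0.93) for lymphatic endothelium, all as log2 fold changes. Among the stellate cell and fibroblast markers Pdgfrb passed the threshold (log2 fold change 0.91, adjusted p = 0.0494 from limma). When 1 liver was left out in turn, it passed in 1 of 8 fits, the one without Brap F/F replicate 4 (adjusted p = 0.0275). With DESeq2 on recovered reads, Pdgfrb (adjusted p = 1.72e-04) and Col1a1 (log2 fold change 1.42, adjusted p = 0.00281) were called. Col1a1, named after its values were seen, did not pass in limma. Of the 9 markers in this list 6 had a fold change above 0 and 3 below (median 0.37). For 3 of them, all above 0, the unadjusted p was under 0.05, and in 1 the groups did not overlap. The 5 lymphocyte markers were low in every liver (285 to 504 against 222 to 291). Ptprc (log2 fold change 0.66), Cd3e (0.41) and Cd79a (0.59) led them. Each of the 5 had a fold change above 0 (median 0.59), and 0 passed in limma. An unadjusted p under 0.05 was found for 2, and in 2 the groups did not overlap. Ptprc (adjusted p = 0.00951) and Ms4a1 (log2 fold change 1.90, adjusted p = 0.0347) were called by DESeq2 on recovered reads. Ms4a1 is named after its values were seen. The lymphatic marker Ccl21a was at or near 0 and below the filter. All lists had defining markers above 0 in every liver, and their part in the values of the 9 factors was not tested. In bulk RNA, fewer cells of a type and less RNA per cell cannot be told apart.

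Scaled by the hepatocyte marker list of the same liver, 4 of the 9 factors passed in limma, Prox1 (log2 fold change 0.68), Onecut2 (0.83), Foxa3 (0.56) and Gata4 (0.52). This scaling raised the median over all genes by 0.32, and 6.18% of all genes passed, 6.08% with the higher level in the Brap LKO livers. Relative to the median of all genes the 4 values were 0.36, 0.51, 0.24 and 0.20. Foxa1, Foxa2 and Cebpb had fold changes of 0.25, 0.01 and 0.10 with this scaling, and -0.06, -0.31 and -0.21 relative to the median. The scaling shifts all genes of a liver by the same amount, so the values relative to the median only repeat the main test. With the same total per liver, which raised the median by 0.16, 3 passed, Prox1 (0.51), Foxa3 (0.39) and Gata4 (0.35), where 3.12% of all genes did, 2.99% in the same direction.

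Other genes of the network were taken from lists. Of 17 partner transcription factors, all tested, 0 passed in limma, 5 had a fold change above 0 and 12 below, and the median was -0.07. Hnf4a, the nuclear receptor on which most hepatocyte genes depend, had 24607 ± 2324 and 23952 ± 4423 normalized counts in the Brap LKO and Brap F/F livers (SD, n = 4 each; log2 fold change 0.05, 95% interval -0.26 to 0.37). Rxra, the partner of many nuclear receptors, was at -0.08 and Nr1i3, the xenobiotic sensor CAR, at -0.22. Tbx3, a repressor that keeps hepatoblasts from bile duct fate, was named after its values were seen, as the partner whose groups did not overlap, with 2025, 2014, 1609 and 2126 in the Brap LKO livers and 1491, 1572, 1130.04 and 1571 in Brap F/F replicates 1 to 4. The difference of 0.44 on the log2 scale did not pass (adjusted p = 0.156 from limma), and with the replicate number as a block it did (adjusted p = 0.0491). Nr1i2, the xenobiotic sensor PXR, was the other partner with an unadjusted p under 0.05, also named after its values were seen. It had the lower mean in the Brap LKO livers, by -0.39 on the log2 scale (95% interval -0.71 to -0.06, adjusted p = 0.250 from limma), and its groups overlapped. The groups did not overlap in 1 of the 17 partners, beside 9.87% of all tested genes. An unadjusted p under 0.05 in limma was found for 2 of the 17, beside 15.8% of all tested genes.

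Among 14 relatives and cofactors of the 9 factors, 13 were tested and 0 passed, with a median of -0.07. Of the 13, 4 had a fold change above 0 and 9 below, and the groups overlapped in all. An unadjusted p under 0.05 in limma was found for 2 above 0 and 1 below, beside 15.8% of all tested genes. Not all of these are named here. The most abundant were Zfpm1, a GATA cofactor, with a log2 fold change of -0.12, Trib1, an adaptor that marks C/EBPα for degradation, with -0.07, and Cebpg, a C/EBP dimer partner, with -0.06. Gata6, a close relative of Gata4, and Zfpm2, the GATA4 cofactor FOG2, are named after their values were seen. Gata6 had 294 ± 47.2 and 404 ± 98.7 normalized counts (SD, n = 4 each), a log2 fold change of -0.44 beside the 0.19 of Gata4 (adjusted p = 0.288 from limma). Zfpm2 had 39.4 ± 8.90 and 26.6 ± 6.10 (log2 fold change 0.55, adjusted p = 0.280).

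Of 17 target genes of these factors, all tested, 0 passed, 4 had a fold change above 0 and 13 below, with a median of -0.19. Alb and Ttr are also hepatocyte markers, and Afp is also a fetal liver gene. The most abundant were Alb (log2 fold change -0.52, 95% interval -1.63 to 0.60), Apoa1 (0.01) and Apob (0.19). At an unadjusted p under 0.05 were Tat, tyrosine aminotransferase, and Cyp7a1, the rate-limiting enzyme of bile acid synthesis. Both are named after their values were seen, and 15.8% of all tested genes had such a p in limma. Tat had 27208, 37111, 58480 and 43042 normalized counts in Brap LKO replicates 1 to 4 and 49280.3, 138751, 78937 and 51505 in the Brap F/F livers, a difference of -0.86 on the log2 scale (adjusted p = 0.277 from limma). Cyp7a1 had 7458, 4443, 17594 and 2752 in the Brap LKO livers and 4500.2, 2224, 2690.02 and 1521 in the Brap F/F livers, a difference of 1.32 on the log2 scale (adjusted p = 0.277). Its groups overlapped, and Brap LKO replicate 3 held the highest value.

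Acute phase genes, which C/EBPβ helps to induce, spread widely within both groups. Of 16, all tested, 0 passed, 13 had a fold change below 0, and the median was -0.18. The fibrinogen chains were the most abundant, with log2 fold changes of -0.19 for Fga, -0.18 for Fgb and -0.22 for Fgg and 95% intervals that reached from about -1.04 to 0.66 for Fga.

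Fetal liver genes are read in hepatoblasts and turned down after birth. Of 7, 5 were tested, all 5 with the higher mean in the Brap LKO livers (median log2 fold change 1.77), and 1, Igf2bp3, passed. Igf2bp3, a fetal RNA-binding protein, had 31, 41, 47 and 16 reads in Brap LKO replicates 1 to 4 and 1, 0, 2 and 1 in Brap F/F replicates 1 to 4, at least 10.1-fold higher against a floor of 3 reads per control liver (adjusted p = 0.00723 from limma). H19, a fetal noncoding RNA, had 75.6, 679.6, 13.2 and 3153 normalized counts in Brap LKO replicates 1 to 4 and 3.42, 5.09, 7.36 and 3.92 in the Brap F/F livers. Its groups did not overlap, and the Brap LKO livers differed widely among themselves. It did not pass in limma (adjusted p = 0.121) and passed in DESeq2 on recovered reads (adjusted p = 5.57e-06). Afp, the fetal counterpart of albumin and a FOXA target, had 31.9, 62.9, 539 and 64.5 in the Brap LKO livers and 31.9, 18.3, 12.6 and 62.8 in the Brap F/F livers (adjusted p = 0.331), so 1 liver, Brap LKO replicate 3, carried most of its mean. For Gpc3 the log2 fold change was 0.34 (adjusted p = 0.591).

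**Figure D5:**
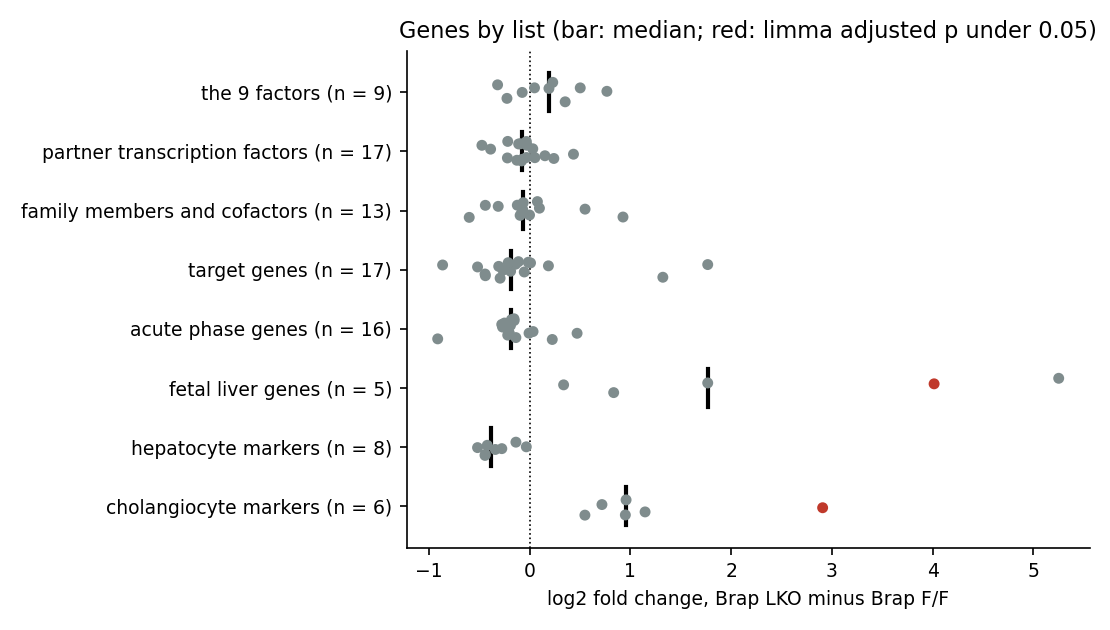
Log2 fold change, Brap LKO minus Brap F/F, of the 9 factors, of the tested genes of 5 lists and of the hepatocyte and cholangiocyte markers, 1 point per gene, with the median as a black bar and genes past the threshold in red. The medians of the factors and of their partners and targets lie between -0.19 and 0.19, that of the fetal liver genes at 1.77, and the 2 red points are Igf2bp3 and Cftr.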

How the data were processed

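Liver RNA from 4 Brap LKO and 4 Brap F/F mice was sequenced by the authors (NuGEN Universal Plus mRNA libraries, single-end reads of 50 bases). They aligned reads to mm10 with STAR 2.6.0c and divided the count of each gene by a DESeq2 size factor per liver, and this signal is what was deposited. The counting tool, annotation release and use of strand are not given in the sources used here. All values were whole multiples of the value of 1 read in their liver (100% within a tolerance of 0.001), so reads could be recovered. A second deposited table holds the authors' own comparison (fold changes and p-values) and was not used. Of 24451 genes, 187 had no symbol and 24430 were found in GENCODE vM21, which gave coordinates and exon lengths.

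The test was limma 3.58.1 (R 4.3.3) on log2(normalized count + 1), with the spread allowed to follow the level, for genes with a mean of at least 5 and without covariates. The pseudocount makes the fold changes of low genes smaller. Single values and ratios were compared by two-sided exact permutation tests. The alternatives were pseudocounts of 0.5 and 5, no filter and a mean of at least 20, other normalizations, limma variants, a replicate block, the animal series as a covariate, each liver left out, and edgeR 4.0.16 and DESeq2 1.42.0 on recovered reads. The limma script was tested on simulated data. Depth differed little between livers, and intervals rest on the spread between 4 livers. The sum of normalized counts per liver, which the same total per liver makes equal, differed between the groups without overlap. It was 27440741 to 28975099 in the Brap LKO livers and 29964617 to 32729998 in the Brap F/F livers.

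The members and lists were chosen with earlier results of these data known. Named were all 9 members, list genes past the threshold, the 3 most abundant tested genes of each list and the gene of closest pattern to each member, apart from those said to be named after their values were seen.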

Additional observations from a re-analysis of the deposited data

Results flagged for a closer look

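Onecut1 in Brap F/F replicate 3 stood far from the other controls, at 2448 normalized counts where the nearest control liver had 621. The gap was 0.872 of the range of the 4 livers in normalized counts, above the 95% critical value of Dixon's test. On the log2 scale it was 0.707 of the range, below that value. It was the 1 such liver among 18 groups examined (9 genes in 2 groups), where chance gives about 1 in 20. Without it the log2 fold change of Onecut1 was 1.34 in place of 0.77 (adjusted p = 0.366 from limma).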

How the results depend on the processing

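Most alternatives left 0 of the 9 members past the threshold. The exceptions were the same total per liver, with 3 (Foxa3, Prox1 and Gata4), scaling to the hepatocyte marker list, with 4 (Onecut2 in addition), and DESeq2 on recovered reads, with 2 (Prox1 and Onecut2). The median of the 9 fold changes, 0.19, was 0.35 with the same total per liver and 0.52 relative to the hepatocyte marker list. These 2 scalings moved the median of all genes by 0.16 and 0.32. The list genes past the threshold, 1 in the main test (Igf2bp3), were 0 with a mean of at least 20, 4 relative to the hepatocyte marker list and 2 with DESeq2. The filter at 20 removed Igf2bp3 from the test, and the cause of the other changes was not tested.

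With the replicate block, 0 members and 2 list genes (Igf2bp3 and Tbx3) passed. The numbers were not taken to pair the livers, since same-numbered livers deviated together with correlations of -0.13, 0.0034, 0.20 and 0.29 for replicates 1 to 4, of which 2 are below 0.1. Replicates 2, 3 and 4 correlated best with their own number and replicate 1 with number 3, which is a hint from the data and not from the design. Over all genes 95 passed with the block and 118 without. Among the cell type markers, Pdgfrb, Col1a1 and Spp1 passed with the block and Cftr did not.

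With each liver left out in turn, 0 members and 1 list gene passed in every case, and the median of the 9 ranged from 0.16 to 0.22. Prox1 ranged from 0.31 to 0.43 (adjusted p = 0.0689 to 0.239 from limma), Onecut2 from 0.39 to 0.61 (0.0719 to 0.318) and Onecut1 from 0.41 to 1.39. Foxa2 ranged from -0.41 to -0.17, Cebpb from -0.28 to -0.15 (without Brap LKO replicate 4) and Foxa1 from -0.19 to 0.03 (without Brap F/F replicate 1). The log2 ratio of Cebpa to Cebpb differed by 0.16 to 0.35 and that of Onecut1 to Onecut2 by 0.02 to 0.86, and with 4 livers against 3 the smallest exact permutation p is 0.0571. Over all genes, 18 passed without Brap LKO replicate 1, 18 without replicate 2 of Brap F/F, 232 without Brap F/F replicate 4 and 601 with DESeq2 among the genes of the main test. Prox1, Onecut2, Onecut1, Foxa3 and Gata4 kept their sign in all 22 alternatives, Foxa2, Cebpa and Cebpb in 21 and Foxa1 in 19. The 22 include the filters, the limma variants and the replicate block, which leave each fold change as in the main test. The sign could not change in those, so they add nothing to these counts.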
